A study of Mus musculus with 2 samples.

Results

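The mitochondrial carriers of the SLC25 family were described in the liver of Pgrmc1 KO and WT mice. The members were taken by name: every symbol of the deposited TPM table that is Slc25a and a number. The table held 47 such symbols among 24054 genes, and 39 of them had a mean of at least 1 TPM over both libraries. The KO pool came from male mice (Pgrmc1 -/Y) and the WT pool from male mice, all of the strain C57BL/6 and 8 to 12 weeks old. The KO mice lacked exons 1 and 2 of Pgrmc1 in the whole body, after a floxed allele made in C57BL/6N had been recombined by Sox2-Cre. RNA of 5 mice per genotype, 2.5 μg from each, was combined before library preparation, so that each genotype is represented by 1 sequenced library. No difference below therefore carries a replicate error, and none was tested between genotypes.

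SLC25 proteins sit mainly in the inner mitochondrial membrane, which is otherwise closed to most metabolites. Each carrier exchanges or co-transports a small set of solutes, among them adenine nucleotides, phosphate, carboxylates, amino acids, cofactors and iron. In liver they link cytosol and matrix in ATP export, the urea cycle, the malate-aspartate shuttle, fatty acid oxidation, citrate export for lipid synthesis and heme synthesis.

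Most members stood at almost the same level in both pools, and a single gene, Slc25a25, differed by more than the fold used here to count a gene as up. Each change is the log2 of KO over WT after 1 TPM was added to both values, which makes changes of weakly expressed genes look smaller. On this scale, up means a fold of at least 1.4 and down a fold of at most 0.6. Of the 39 measured members, 1 was up (2.56%), against 1.09% of all 11623 genes that reached the same mean level. None of the 39 was down, against 0.301% of all genes. The median log2 change of the members was 0.0048, and that of all genes was -0.013. A change above 0 was found for 21 of the 39 members (53.8%) and for 45.8% of all genes. Changes smaller than 0.1 in either direction were found for 24 members (61.5%) and for 53.7% of all genes. Below 0.2 the order was reversed, with 31 members (79.5%) and 81.4% of all genes.

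Slc25a25, an ATP-Mg/phosphate carrier regulated by calcium, was at 56.52 TPM in WT and at 184.59 TPM in KO. Its log2 change was 1.69, a fold of 3.23. The gene (Entrez 227731) lies on chromosome 2, 32414487 to 32451470 of GRCm38, the assembly also called mm10. A larger change was found for 0.155% of the measured genes. In estimated reads the gene had 3214 in WT and 7831 in KO, and the 95% Clopper-Pearson interval of the log2 ratio of the authors' library means ran from 1.66 to 1.78. All intervals given here are of this ratio of means, which has no 1 TPM added. They cover counting error only and not differences between mice, and pooled RNA does not show how many of the 5 mice carried the rise. The next member below the threshold was Slc25a28, at a fold of 1.30, and the member nearest to the threshold for falls was Slc25a14, at a fold of 0.784. None of the 100-base windows of Slc25a25 transcripts occurred in a transcript of another gene. Its exons overlap those of Naif1 on the opposite strand (the library kit keeps strand), and this gene was at 1.47 TPM (KO) and 1.12 TPM (WT).

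RefSeq lists 3 start sites for Slc25a25 on GRCm38.p6, the second 20.3 kb and the third another 7.1 kb inside the gene. The TPM table gives 1 value per gene, so the share of each start site in the rise was not measured. Motifs were searched on both strands in the window from 250 bases before to 50 bases after each start site. They were chosen with the rise of Slc25a25 already known. The window of the third start site is printed because it holds the full cAMP response element TGACGTCA, shown in capitals. It begins 150 bases before the start site.

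Slc25a25 start site 3, chr2:32424017-32424316, minus strand, GRCm38.p6, 5′ to 3′: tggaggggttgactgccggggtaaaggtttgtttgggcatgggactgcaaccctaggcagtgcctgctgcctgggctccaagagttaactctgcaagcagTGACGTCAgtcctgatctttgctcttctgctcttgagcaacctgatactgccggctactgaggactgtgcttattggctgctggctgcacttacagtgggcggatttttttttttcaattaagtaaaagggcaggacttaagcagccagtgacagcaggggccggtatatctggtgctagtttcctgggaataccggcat

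This element was found in 588 of 32851 promoter windows of the same length (1.79%), and in 2 of the 46 windows of the 36 members that could be matched to the promoter table. The other of these windows belongs to Slc25a36, a pyrimidine nucleotide carrier at 2.52 TPM (KO) and 2.61 TPM (WT). The element holds the half-site TGACG on either strand, and the half-site was found in 20.8% of all windows and in 13 of the 46 windows of members. The windows of the other start sites of Slc25a25 held neither form. The E-box CACGTG (7.15% of all windows) and the letters TATAAA (13.6%) were in none of its windows. Of the 46 windows of members, 8 held the E-box and 2 held TATAAA. A match of letters is a description of the sequence and not evidence of binding.

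The 39 measured members ran from 1.10 to 463.28 TPM in KO and from 1.11 to 453.30 TPM in WT. Slc25a5, the main ADP/ATP carrier of these livers, was the most abundant member at 463.28 TPM (KO) and 453.30 TPM (WT). Slc25a47, a carrier known mainly from liver, followed at 447.59 and 431.37 TPM. Slc25a39, which brings glutathione into mitochondria, came after these at 221.63 TPM (KO) and 215.61 TPM (WT). These 3 genes, with the ornithine carrier Slc25a15 and the phosphate carrier Slc25a3, held 55.7% of the summed TPM of the family in KO and 57.3% in WT. In all, 9 members had a mean of at least 100 TPM, 26 had at least 10 TPM and 13 lay between 1 and 10 TPM.

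**Figure D1:**
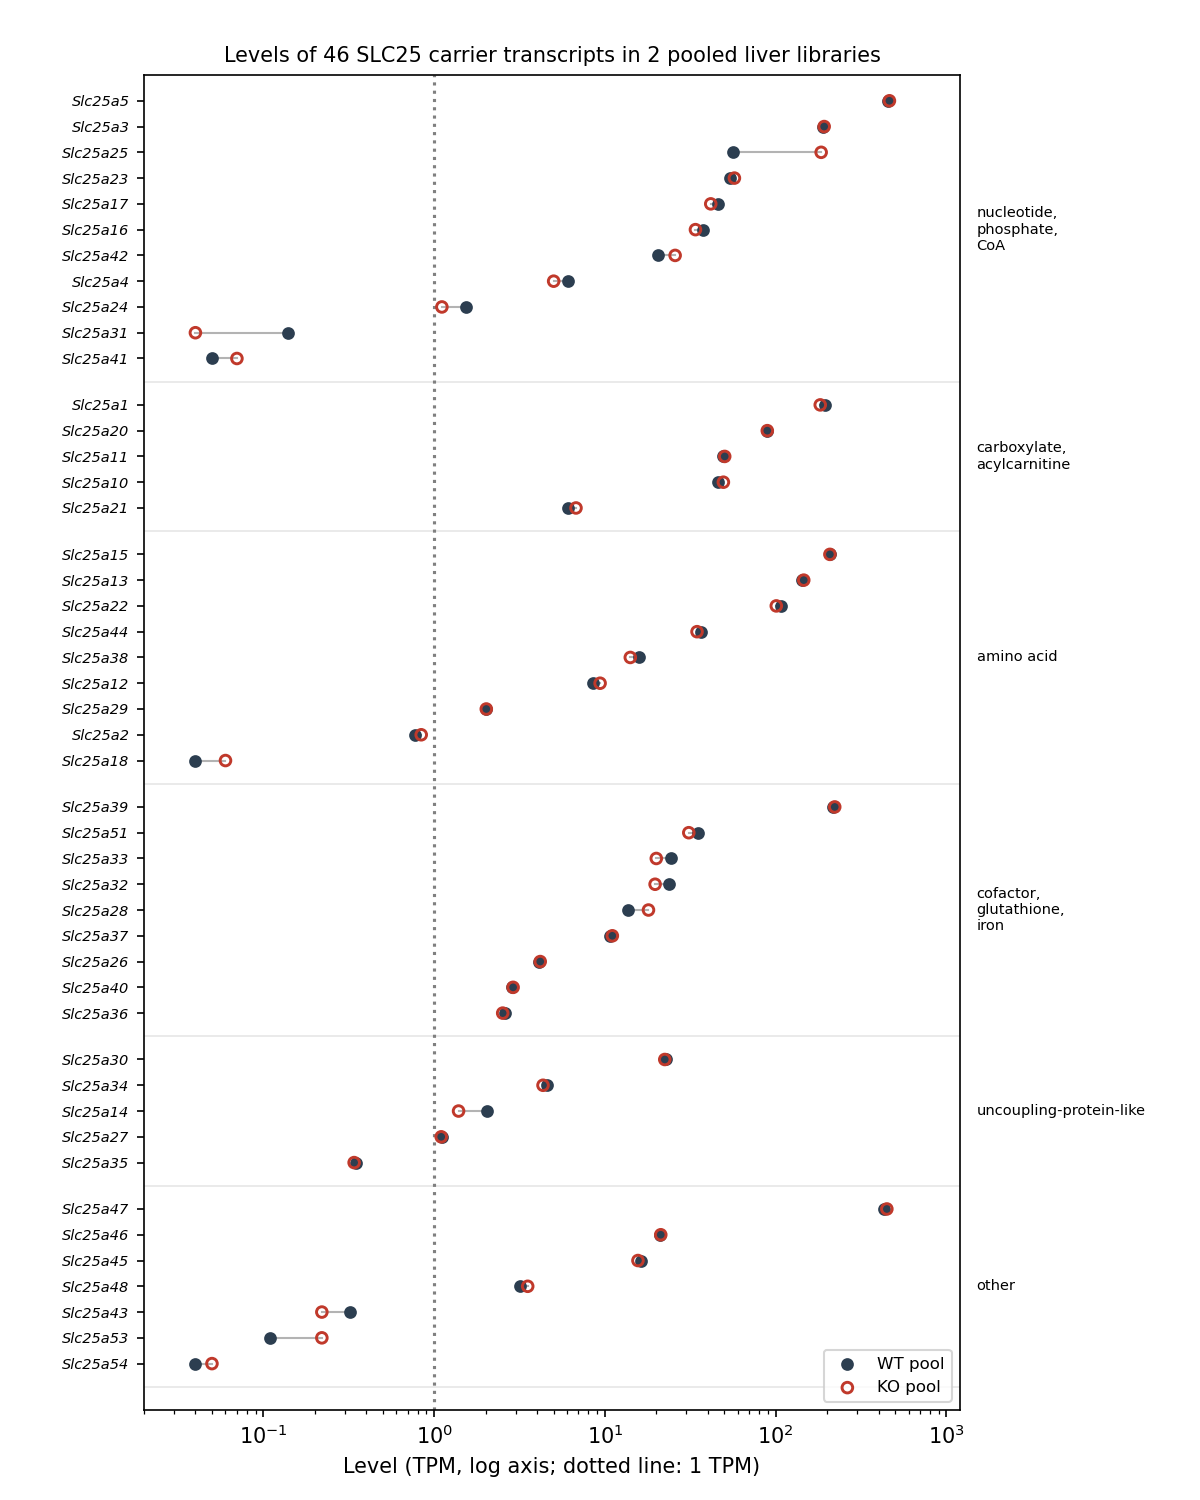
Level of 46 of the 47 members in the WT pool (filled points) and in the KO pool (open circles), in TPM on a log axis and grouped by the solute carried. Points of a gene nearly coincide for most members above 1 TPM, while Slc25a25 is at 56.52 TPM (WT) and 184.59 TPM (KO).

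The summed level of the 47 members was 2753.35 TPM (KO) and 2613.16 TPM (WT), a ratio of 1.05. Without Slc25a25 the sums were 2568.76 and 2556.64 TPM, a ratio of 1.0047. The gap between the pools in the summed level thus lay almost wholly in this gene. Apart from Slc25a25, among members that averaged 10 TPM or more, the changes ran from -0.27 for Slc25a33 to 0.38 for Slc25a28. For comparison, the 5th and 95th percentiles of all genes that averaged 10 TPM or more were -0.25 and 0.20.

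**Figure D2:**
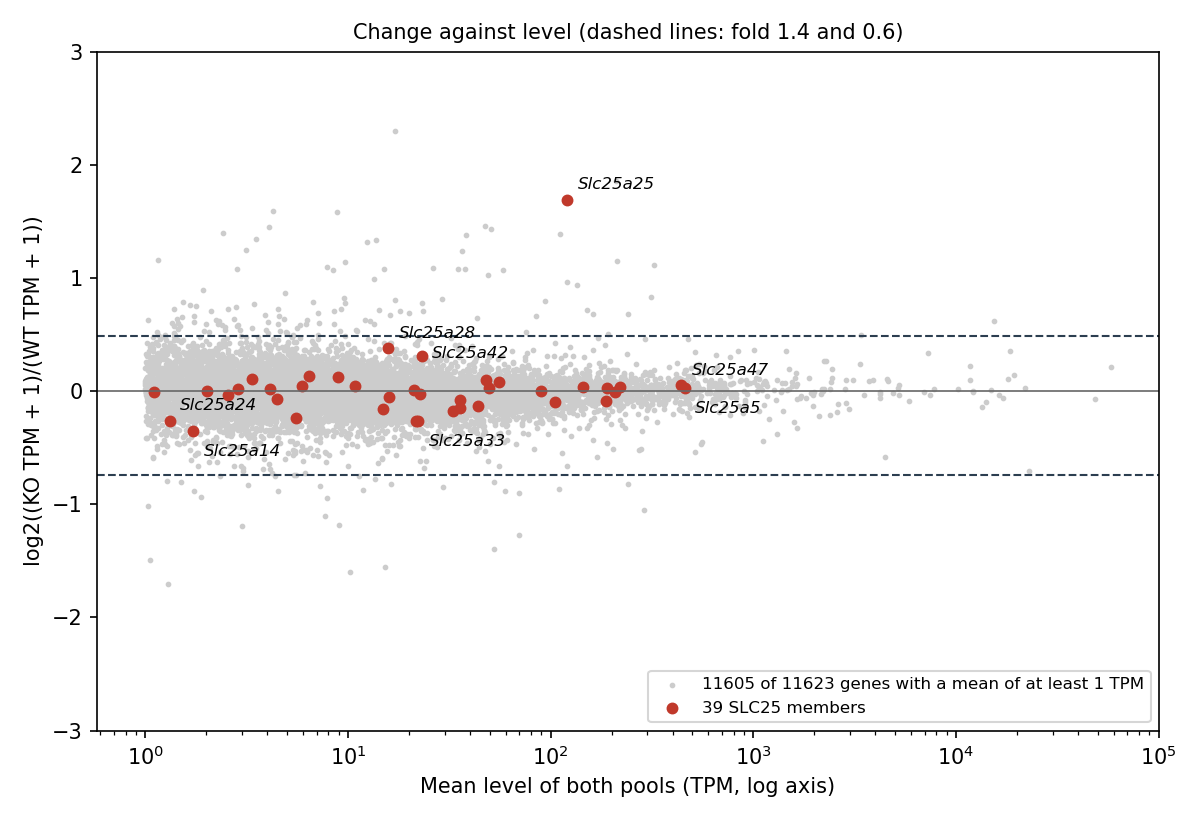
Change of each gene on the log2 scale against its mean level in TPM (log axis), for the 39 measured members (red) and all genes that averaged 1 TPM or more (grey; 18 of 11623 lie outside the axis). Dashed lines mark the folds of 1.4 and 0.6. Slc25a25 alone among the members lies beyond them, at 1.69.

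A narrower fold was also read, as an alternative. At a fold of at least 1.2, 3 of the 39 members were higher in KO (7.69%; all genes 5.27%), namely Slc25a25, Slc25a28 and Slc25a42. At a fold of at most 1/1.2, 3 members were lower (7.69%; all genes 5.51%), namely Slc25a14, Slc25a33 and Slc25a32. These shares are close to those of all genes. Counting intervals above 0 were found for 8 of the 39 members (20.5%), against 11.7% of 11542 genes with estimated reads, and intervals below 0 for 6 members (15.4%), against 13.4%. The other 25 members had intervals that held 0. Of those above 0, the intervals of Slc25a39 (0.0004 to 0.11) and Slc25a5 (0.0047 to 0.095) barely left 0. For these genes the change in TPM was 0.040 and 0.031, below the log2 ratio of means of 0.056 and 0.050. An interval leaves 0 at smaller changes the more reads a gene has, and the members ranged from 23 to 9619 estimated reads in KO and from 49 to 12930 in WT.

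**Figure D3:**
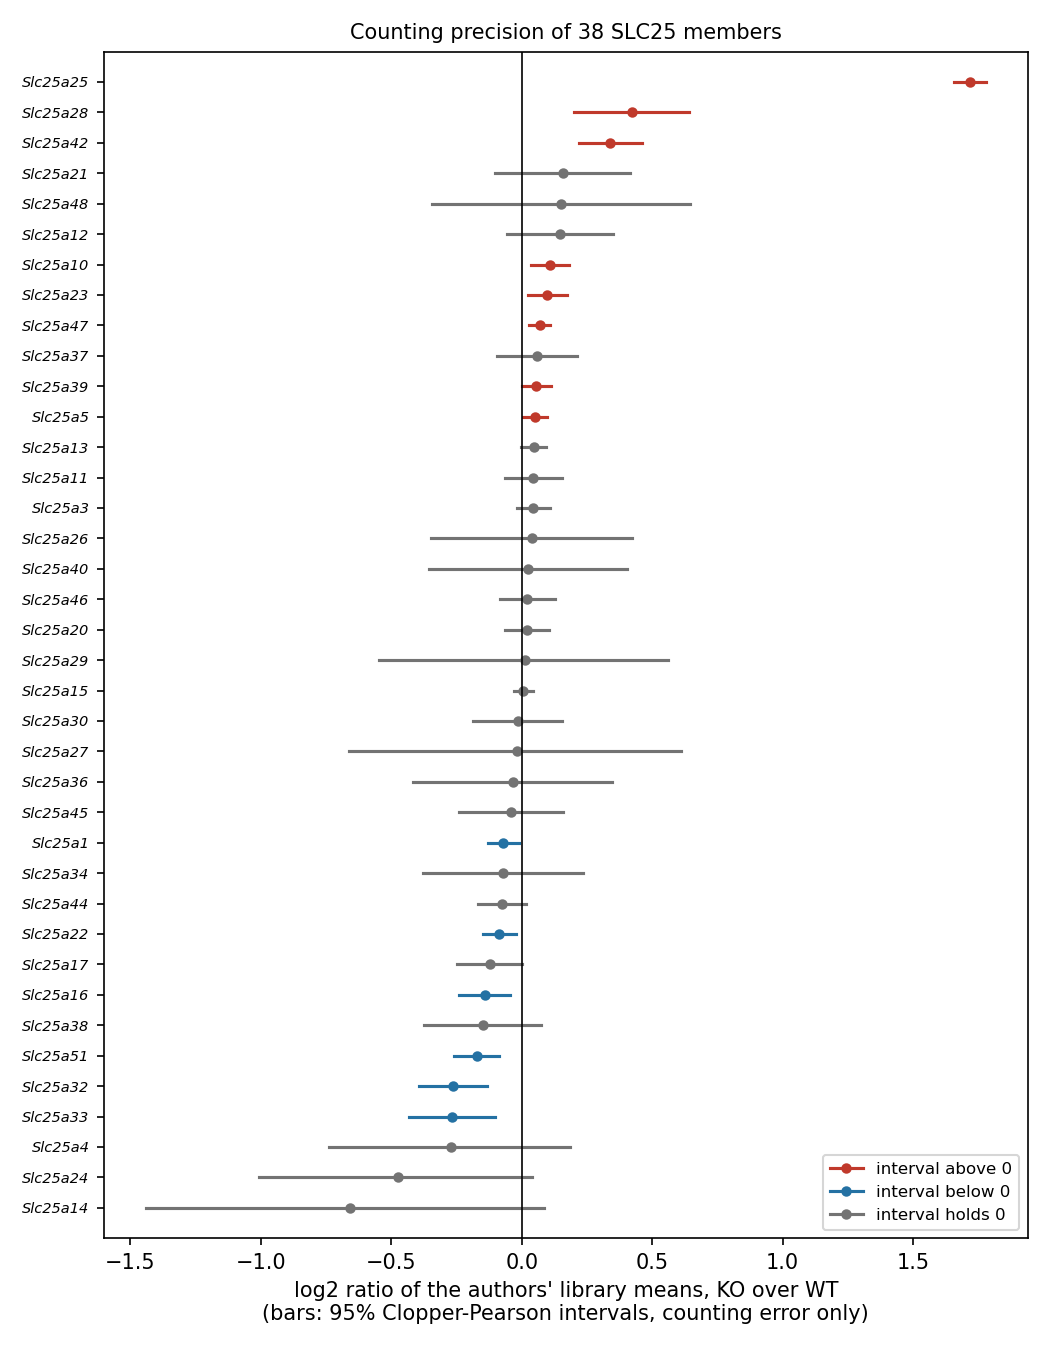
Log2 ratio of the authors' library means, KO over WT, of 38 of the 39 measured members, with 95% Clopper-Pearson intervals as bars (counting error only). Red, 8 members with an interval above 0; blue, 6 with an interval below 0; grey, 24 with an interval that holds 0. Slc25a25 is set apart at the top and the bars are widest for low genes such as Slc25a14.

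Among the carriers of nucleotides, phosphate and CoA, 9 of 11 members were measured, and 5 of the 9 had a change above 0. The ATP-Mg/phosphate carriers adjust the adenine nucleotide content of the matrix. Slc25a23, the other abundant carrier of this kind, was at 57.30 TPM (KO) and 53.99 TPM (WT). Its interval, 0.02 to 0.17, lay just above 0. Slc25a24 was at 1.11 TPM (KO) and 1.53 TPM (WT), on 49 and 92 estimated reads. Its change of -0.26 was -0.43 with a pseudocount of 0.1 TPM and -0.47 with the authors' means, and its interval of -1.01 to 0.04 held 0. Slc25a41 was at 0.07 and 0.05 TPM. Slc25a25 and Slc25a23 thus had like levels in WT, with 50.4% and 48.2% of the summed TPM of these 4 carriers. In KO they had 75.9% and 23.6%. The sum itself was 112.09 TPM (WT) and 243.07 TPM (KO), a ratio of 2.17.

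The ADP/ATP carriers export ATP from the matrix in exchange for ADP. Slc25a5 made up 98.6% of their summed TPM in WT and 98.9% in KO. Its log2 change was 0.03, on 9091 estimated reads in WT and 6968 in KO, and 8.33% of its 100-base transcript windows also occur in other genes, most of them in predicted genes. Such sharing reached 6.11% for Slc25a37, 4.48% for Slc25a36, 2.36% for Slc25a20 and 2.25% for Slc25a40, and it was under 1% for the other members. Slc25a4, the form typical of muscle and heart, was at 5.01 TPM (KO) and 6.10 TPM (WT) (interval -0.74 to 0.19). The germ cell form Slc25a31 was at 0.04 TPM (KO) and 0.14 TPM (WT), with 0 and 4 estimated reads. A count of 0 allows up to 3 reads, so no fold is given. Slc25a3, which imports phosphate for ATP synthesis, was at 192.23 TPM (KO) and 188.58 TPM (WT), with an interval of -0.02 to 0.11.

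Slc25a42, which brings CoA into the matrix, was at 25.77 TPM (KO) and 20.53 TPM (WT). Its log2 change of 0.31 did not reach the fold of 1.4, and its interval ran from 0.22 to 0.46. A larger change was found for 3.44% of all measured genes. Slc25a16, also linked to CoA, was at 33.89 TPM (KO) and 37.70 TPM (WT), a change of -0.15 with an interval of -0.24 to -0.04. Slc25a17, the peroxisomal carrier of the family, was at 41.66 and 45.85 TPM, with an interval of -0.25 to 0.0023. In this group, then, CoA-related carriers were found on either side of 0.

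**Figure D4:**
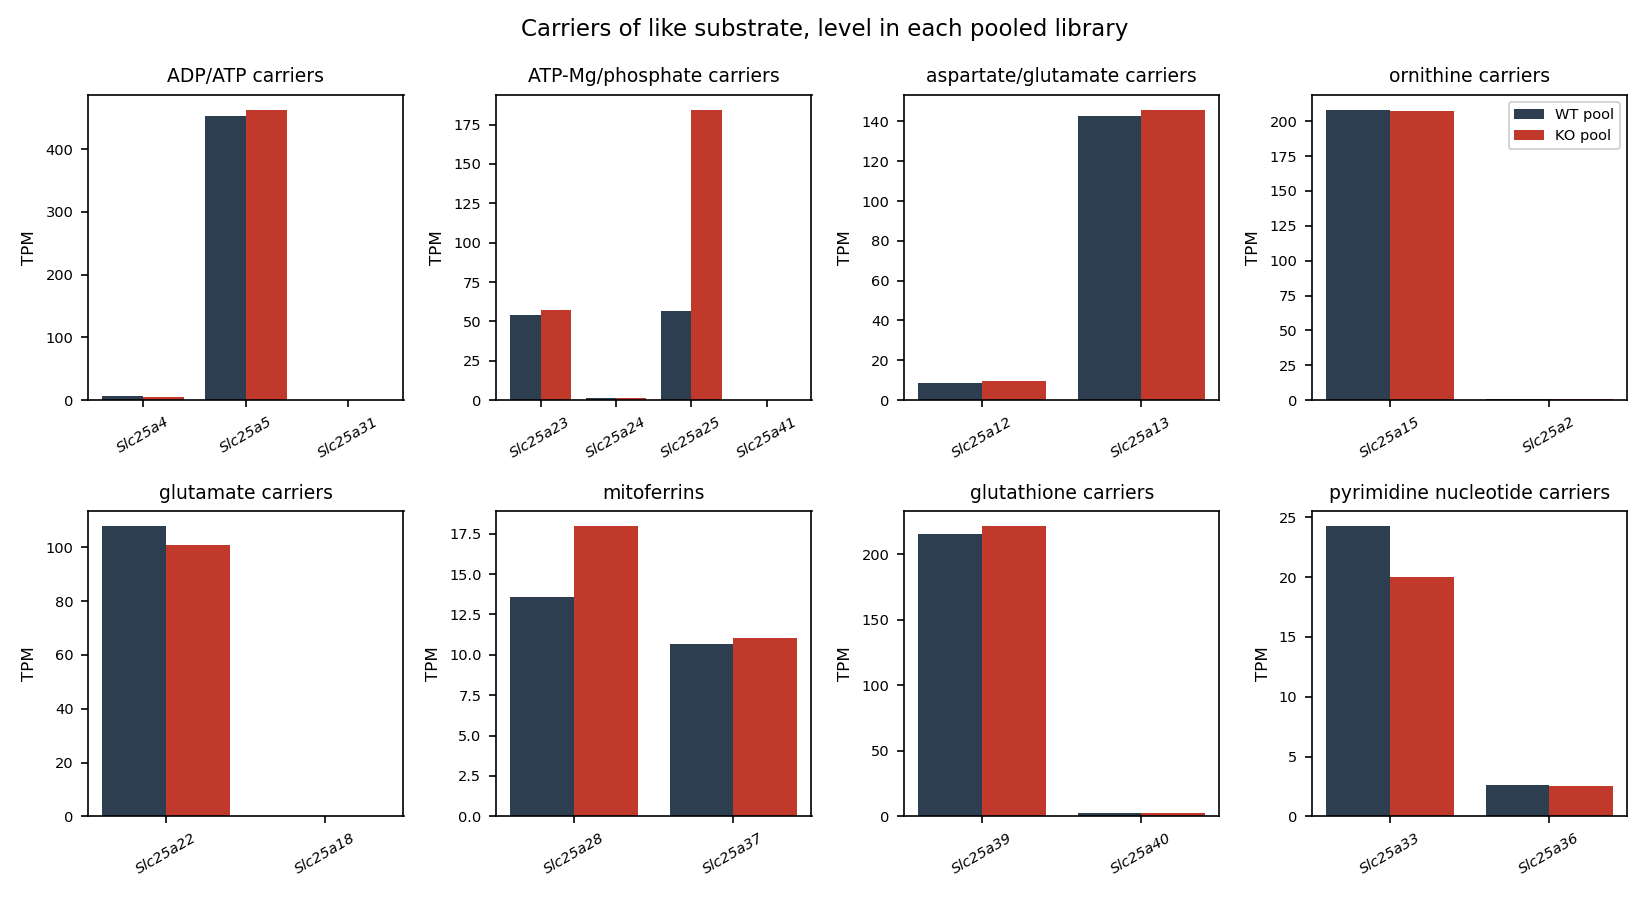
Level in TPM (linear axes from 0, scaled per panel) of carriers of like substrate in the WT pool (dark) and the KO pool (red). In 6 of the 8 sets 1 member holds at least 88.8% of the TPM in both pools, Slc25a25 and Slc25a28 hold 50.4% and 56.0% of theirs in WT, and Slc25a25 is the bar that differs most between pools.

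The carriers of carboxylates and acylcarnitine differed little. All 5 were measured, with changes from -0.09 to 0.14. Slc25a1, which exports citrate for lipid and sterol synthesis, was the most abundant and the lowest by change, at 182.32 TPM (KO) and 193.52 TPM (WT) (interval -0.13 to -0.01). Slc25a20, the carnitine/acylcarnitine carrier of fatty acid oxidation, was at 89.28 TPM (KO) and 89.02 TPM (WT), with an interval of -0.06 to 0.10. The dicarboxylate carrier Slc25a10 was at 49.39 and 46.20 TPM, with an interval of 0.03 to 0.18. The oxoglutarate/malate carrier Slc25a11 was at 50.28 TPM (KO) and 49.26 TPM (WT), a change of 0.03. Slc25a21, a carrier of oxodicarboxylates from lysine breakdown, had the highest change of this group, 0.14, at 6.77 and 6.07 TPM, and its interval of -0.10 to 0.42 held 0.

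Amino acid carriers, of which 7 of 9 were measured, ran from -0.15 to 0.12, with 3 above 0. Slc25a15, which exchanges ornithine and citrulline in the urea cycle, was the most abundant, at 207.65 TPM (KO) and 208.43 TPM (WT). Its interval of -0.03 to 0.05 was among the narrowest of the family. Its paralog Slc25a2 was at 0.84 and 0.77 TPM. The aspartate/glutamate carriers feed the malate-aspartate shuttle. Slc25a13 (citrin) was at 145.96 TPM (KO) and 142.66 TPM (WT), and made up 94.0% and 94.4% of the sum with Slc25a12. Slc25a12 itself was at 9.37 and 8.54 TPM, the highest change of the group at 0.12, with an interval of -0.06 to 0.35.

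The glutamate carrier Slc25a22 was at 100.80 TPM (KO) and 108.02 TPM (WT). Its change was -0.10 and its interval, -0.15 to -0.02, lay below 0. Slc25a18, the other glutamate carrier, was at 0.06 and 0.04 TPM. Slc25a38, which carries glycine for heme synthesis, had the lowest change of the group, -0.15, at 14.08 TPM (KO) and 15.78 TPM (WT) (interval -0.37 to 0.07). The branched-chain amino acid carrier Slc25a44 was at 34.62 and 36.68 TPM, a change of -0.08. Slc25a29, a carrier of basic amino acids, was at 2.02 TPM (KO) and 2.01 TPM (WT).

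All 10 carriers of cofactors, nucleotides, glutathione and iron were measured, and their changes ran from -0.27 to 0.38, with 6 above 0. The mitoferrins import iron for heme and iron-sulfur clusters. Slc25a28 (mitoferrin 2; chromosome 19, 43663801 to 43675006 of GRCm38) was at 17.99 TPM (KO) and 13.59 TPM (WT), a log2 change of 0.38. It rested on 345 and 348 estimated reads from a shallower KO and a deeper WT library, and its interval ran from 0.20 to 0.64. A larger change was found for 2.14% of all measured genes. Slc25a37 (mitoferrin 1), the form of red cell precursors, was at 11.05 and 10.68 TPM, a change of 0.04 with an interval of -0.09 to 0.21.

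Slc25a33, which carries pyrimidine nucleotides, had the lowest change of this group, -0.27, at 19.99 TPM (KO) and 24.28 TPM (WT). Its interval was -0.43 to -0.10, and a lower change was found for 5.21% of all genes. Slc25a32, the carrier of folate and FAD, was next at -0.26, with 19.67 TPM in KO, 23.82 TPM in WT and an interval of -0.40 to -0.13. Slc25a51, which imports NAD, was at 30.98 and 35.20 TPM, a change of -0.18 with an interval of -0.26 to -0.09. Slc25a33, Slc25a32 and Slc25a51 all had intervals below 0, and none reached the fold of 0.6. Slc25a39 had a change of 0.04, and its paralog Slc25a40 was at 2.90 TPM (KO) and 2.84 TPM (WT). Slc25a26, the carrier of S-adenosylmethionine, was at 4.18 and 4.10 TPM, close to 0 change.

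Of the 5 members grouped as resembling uncoupling proteins, 4 were measured, and their changes were all below 0, though that of Slc25a27, -0.0069, was 0.0063 after centring on the median gene. Over all genes, 45.8% had a change above 0. Slc25a30 was the most abundant at 22.41 TPM (KO) and 22.89 TPM (WT), a change of -0.03 with an interval of -0.19 to 0.16. Slc25a14 had the lowest change of the whole family, -0.35, at 1.39 and 2.05 TPM. It was -0.53 with a pseudocount of 0.1 TPM and -0.64 with the authors' means. It rested on 23 estimated reads in KO and 49 in WT, and the interval of -1.44 to 0.08 around its log2 ratio of means, -0.66, held 0. Slc25a34 was at 4.34 TPM (KO) and 4.60 TPM (WT), Slc25a27 at 1.10 and 1.11 TPM (interval -0.66 to 0.61), and Slc25a35 at 0.34 and 0.35 TPM.

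Of the remaining 7 members, 4 were measured, with changes from -0.05 to 0.11. Slc25a47 had a change of 0.05 and an interval of 0.03 to 0.11. Slc25a46, an outer membrane protein linked to mitochondrial shape, was at 21.23 TPM (KO) and 21.08 TPM (WT). Slc25a45 was at 15.61 and 16.21 TPM, a change of -0.05 with an interval of -0.24 to 0.16. Slc25a48 was at 3.53 and 3.20 TPM (interval -0.34 to 0.64). Slc25a53 was at 0.22 TPM (KO) and 0.11 TPM (WT), on 7 and 4 estimated reads. Slc25a43 was at 0.22 and 0.32 TPM, on 0 and 3 estimated reads, and Slc25a54 at 0.05 and 0.04 TPM. The posterior mean TPM stays above 0 without reads, so such values are not read as expression.

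Of the members, 4 pairs lie near each other in the genome. Slc25a43 and Slc25a5 are 18.3 kb apart on the X chromosome, and both lie close to the deleted gene, starting 137.5 and 189.5 kb after the end of Pgrmc1 (36598193 to 36606079 of GRCm38). Pgrmc1 fell to 0.68 TPM in KO from 949.49 TPM in WT, which checks the labels, while the log2 change of Slc25a5 was 0.03. On chromosome 17, Slc25a41 (mean 0.06 TPM) and Slc25a23 (mean 55.6 TPM) are 2.1 kb apart. On chromosome 12, Slc25a29 (mean 2.02 TPM) and Slc25a47 (mean 439 TPM) are 14 kb apart, and Slc25a54 and Slc25a24 on chromosome 3 were both low.

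Genes that work beside the carriers were read as lists. No gene of these lists reached the fold of 1.4 or of 0.6, against 1.09% and 0.301% of all measured genes. At such shares, lists of this length would hold few such genes or none. Over all measured genes, 45.8% had a change above 0, and the median was -0.013. Of 5 proteins of the carrier fold with other symbols, 3 were measured: Mtch2 (85.65 TPM in KO, 85.62 TPM in WT), Mtch1 (32.43 and 32.22 TPM) and Ucp2 (6.31 and 5.80 TPM), with a median change of 0.0091. Of 22 other transporters of the mitochondrial membranes, 19 were measured, with 9 above 0 and a median of -0.018. The lowest was Micu2, a regulator of the calcium uniporter, at -0.23. The pyruvate carrier subunits Mpc1 and Mpc2 had log2 changes of -0.10 and 0.07. The import machinery that inserts carriers into the inner membrane had 15 of 16 genes measured, 6 above 0 and a median of -0.037, from -0.14 for Tomm22 to 0.26 for Timm8a1.

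Of 24 enzymes that make or use the solutes of the carriers, all were measured and 4 lay above 0 (all genes 45.8%). Their median was -0.066, against -0.013 for all genes. The lowest was Ass1, a urea cycle enzyme, at 459.74 TPM (KO) and 637.35 TPM (WT) (-0.47). Acly and Me1, which act on exported citrate and malate in lipid synthesis, were at -0.30 and -0.33. Cpt1a and Cpt2, which act before and after Slc25a20, were at 0.06 each. Ornithine transcarbamylase (Otc), beside Slc25a15, was at -0.06. Markers of mitochondrial content had a median of 0.0039 over 8 genes, and citrate synthase (Cs) was at 75.74 and 76.76 TPM, so these markers stood at like levels in both pools.

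Transcripts of hepatocytes dominated both pools, at a summed 72517 TPM (KO) and 75646 TPM (WT) for 7 markers. Summed markers of Kupffer cells were at 215.56 TPM (KO) and 193.95 TPM (WT), of stellate and mural cells at 234.72 and 266.75 TPM and of endothelial cells at 144.63 and 160.6 TPM. Those of bile duct cells were at 4.15 and 5.44 TPM and of red cells at 1412.15 and 1428.83 TPM. Markers of a type went both ways in all but endothelial cells. Changes were above 0 for 2 of 7 hepatocyte, 6 of 7 Kupffer cell, 1 of 8 stellate and mural, 0 of 6 endothelial, 1 of 3 bile duct and 2 of 5 red cell markers (all genes 45.8%). The red cell sum lay mainly in Hba-a1 (log2 change 0.19) and Hba-a2 (-0.14), while Hbb-bs was down (-0.89). All listed markers present in the table had a TPM above 0 in both pools. Fewer cells of a type and less RNA per cell cannot be told apart in such pools, and the part of other cell types in the small changes of carriers was not tested.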

How the data were processed

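Pooled liver RNA of each genotype was sequenced as 1 stranded total RNA library. According to the submitters' processing notes, CASAVA 1.8.2, Bowtie and RSEM 1.2.09 were used with mm10. The authors deposited posterior mean TPM per gene, with columns that sum to 1005325 in KO and 994702 in WT, and, from EBSeq, a normalized signal per library (the authors' mean, estimated reads over a size factor). The other 4 deposited columns, the posterior probabilities and the fold ratios, are the authors' own comparison and were not used.

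Changes were computed with a pseudocount of 1 TPM for genes that averaged 1 TPM or more. The thresholds of fold 1.4 and 0.6 are those of the study, applied here to TPM with the pseudocount. The study also required a high posterior probability of differential expression, and this condition was not applied. The counts of genes up and down here are therefore not those of the study. Reads were estimated as the signal divided by its most frequent value (1.1622 in KO, 0.8605 in WT), which gave 22086688 reads in KO and 29710410 in WT. Within 0.02, 30 of the 44 members in that table were whole in KO and 30 in WT, and over all genes 79.4% and 75.8%. No count test between genotypes was run because each had 1 pooled library, and an interval that leaves 0 is not such a test. Reads were rounded for the Clopper-Pearson intervals, since RSEM shares reads between genes. TPM itself keeps no depth. Slc25a18, Slc25a41 and Slc25a54 are in the TPM table only.

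Of the members, 1 is counted but not reported by name here, and it is left out of the plots that label each member. The other members are all named. Values with intervals are given by rule for members past a threshold or nearest to it, and for the most abundant, highest and lowest member of each role group; others were added after their values were seen. Members and lists were chosen with earlier results of these data known. Mcub, Timm29 and Adgre1 were not found under these symbols. Coordinates and promoters are from RefSeq (GRCm38.p6), and shared 100-base windows and exon overlaps from GENCODE transcripts of GRCm38. The fold calls and the intervals were tested on simulated data that held counting error only. Differences between mice or pools were not simulated, so that test cannot speak to them. Alternatives were another pseudocount, minimum, scaling, table and threshold. Python 3.11.15 was used with scipy 1.17.1, matplotlib 3.10.9, numpy 2.4.6 and pandas 2.3.3.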

Additional observations from a re-analysis of the deposited data

How the results depend on the processing

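No paired analysis was possible because only 1 pool per genotype was sequenced. Under every alternative run, Slc25a25 was up and the change of no other measured member moved by more than its counting error, although, among changes larger than 0.1, those of Slc25a14 and Slc25a24 moved by over 1.5 times; Slc25a15 and Slc25a27, both near 0, changed sign under centring on the median gene, and Slc25a15 also with the authors' means. With folds of 1.2 and 1/1.2, 3 members were up and 3 down in place of 1 and 0, as the wider fold implies. The median of the members lay between 0.0048 and 0.020, and that of the other transporters between -0.018 and 0.015, a change of sign; those of the import, enzyme and other-symbol lists kept their sign, and the remaining lists were not rerun. The log2 ratio of summed TPM, 0.075, was 0.092 without the 2 most abundant members and 0.0068 without Slc25a25, an alternative added after the data were seen. Summed instead over the authors' means, which are on a scale of reads and not of TPM, the log2 ratio was 0.122.

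Over all genes, 127 were up and 35 down. These counts were 266 and 70 with 0.1 TPM, 48 and 17 with a minimum of 10 TPM, 286 and 72 with the authors' means, 31 and 13 with folds of 2 and 0.5, and 613 and 640 with folds of 1.2 and 1/1.2. With 1/1.4 as the threshold for falls, 118 were down, and up calls made up 51.8% of all calls in place of 78.4%. For changes and counts with the authors' means, 1 was added to each mean, which is on a scale of reads and not of TPM. The part of this in the moves with the table was not tested. Depth limits members with few reads, such as Slc25a14, while pooling limits all.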
